A study of Mus musculus with 6 samples.

Results

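Bone morphogenetic protein (BMP) signalling and the Id genes it acts on are described here through 10 genes: the ligand gene Bmp4, the receptor genes Bmpr1a and Bmpr2, the transducer genes Smad1 and Smad5, the inhibitor gene Smad6, and Id1, Id2, Id3 and Id4. They were taken by symbol, and all 10 were found among the 52870 genes and assembled loci of each library. The libraries were made from total RNA of C57BL/6 mouse embryonic stem (ES) cells, the cultured pluripotent cells of the early embryo. The control group was 3 libraries of genotype Rbbp4F/F, and the knockout group was 3 libraries labelled Rbbp4-/- or Rbbp4KO. Rbbp4 encodes a histone-binding subunit of several chromatin complexes. The labels do not say what the F allele is, how or when the knockout was made, how many lines or clones were used, or whether replicates are separate cultures, so the p-values below measure only the spread among these samples, and that spread may be technical. The question the design poses is which transcripts differ between the genotypes.

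BMP ligands are secreted dimers that bring type I receptors (such as Bmpr1a) and type II receptors (such as Bmpr2) together. The type I receptor then phosphorylates Smad1, Smad5 and Smad9, which enter the nucleus with Smad4 and act on target genes, while Smad6 is an inhibitory Smad that the pathway itself induces. Id genes are classic direct targets. Their products hold a helix-loop-helix but lack the basic region that contacts DNA, so they bind E proteins and other basic helix-loop-helix (bHLH) factors and keep them from DNA. In mouse ES cell culture, BMP4 acting through Id genes is known, together with leukaemia inhibitory factor, for supporting self-renewal.

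The values are FPKM, fragments per kilobase of transcript scaled to the total of the library, so levels of different genes can be set side by side. Fold changes are knockout minus control in log2(FPKM + 1), a scale that understates changes of genes with low levels. They were tested with limma over the 13579 genes that reached 1 FPKM in 3 or more libraries, and a gene is called at a Benjamini-Hochberg adjusted p under 0.05. All 10 genes passed that filter. Depth was estimated at 25800000 to 28700000 fragments per library, so a single fragment adds 0.0200 to 0.0225 FPKM to a gene of 2 kb.

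Rbbp4 itself, the check of the labels, was at 58.5, 57.0 and 61.8 FPKM in the control libraries and at 21.3, 12.7 and 11.1 FPKM in the knockouts, a mean of 25.5% of the control (log2 fold change -1.96, limma adjusted p = 3.94e-04). Antisense exons cover 18.0% of its exonic length, and the labels do not say which exons were removed. The summed level of 10 ES cell markers was 4947 to 5082 FPKM in controls and 1513 to 2331 FPKM in the knockouts, and 8 of the 10 were called lower. Pou5f1, which encodes Oct4, was still at 290.2 to 503.0 FPKM in the knockouts, while Nanog was at 3.59 to 4.81 FPKM against 74.2 to 84.8 FPKM. Knockout replicate 1 stood apart from the other knockouts on the second principal component (36.0 against -6.96 and -24.2). The transcriptome moved widely: 36.7% of all tested genes were called higher and 22.5% lower, and the median log2 fold change was 0.17. That median was -0.04 with median-ratio scaling, -0.07 with upper-quartile scaling and 0.31 with equal FPKM sums (an alternative chosen after seeing the data), and the share of genes called higher and lower was then 26.8% and 31.1%, 25.5% and 32.5%, and 44.7% and 17.5%. In bulk RNA, fewer cells of a type and less RNA per cell cannot be told apart.

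The 4 Id genes are paralogs, and the stretch of their coding sequence that is most alike encodes the helix-loop-helix, the part of the protein that pairs with bHLH factors. It is shown because it is what the 4 genes have most in common. The 120 bases below come from GENCODE M21 transcripts on GRCm38, 5′ to 3′ on the coding strand, each within 1 coding exon. They are Id1 at chr2:152736518-152736637 (+ strand), Id2 at chr12:25095783-25095902 (- strand), Id3 at chr4:136144002-136144121 (+ strand) and Id4 at chr13:48261693-48261812 (+ strand). Capitals mark the 69 bases that are the same in all 4 genes.
Id1: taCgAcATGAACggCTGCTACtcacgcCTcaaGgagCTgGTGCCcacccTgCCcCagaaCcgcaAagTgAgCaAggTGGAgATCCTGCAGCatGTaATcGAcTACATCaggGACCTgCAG
Id2: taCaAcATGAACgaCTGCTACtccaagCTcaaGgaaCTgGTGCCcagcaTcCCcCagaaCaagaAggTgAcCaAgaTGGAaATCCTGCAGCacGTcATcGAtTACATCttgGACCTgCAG
Id3: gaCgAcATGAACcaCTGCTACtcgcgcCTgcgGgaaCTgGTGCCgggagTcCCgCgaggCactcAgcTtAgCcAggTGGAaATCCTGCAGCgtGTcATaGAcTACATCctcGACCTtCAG
Id4: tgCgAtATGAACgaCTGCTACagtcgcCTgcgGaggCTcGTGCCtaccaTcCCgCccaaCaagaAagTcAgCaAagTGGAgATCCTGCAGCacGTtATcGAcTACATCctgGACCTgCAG
In this stretch the pairs were 70.8% (Id1 and Id3, Id3 and Id4) to 81.7% (Id1 and Id2) identical. The longest run of identical bases shared by any pair of whole transcripts was 11 to 19 bases.

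Of the 10 genes, 5 were called higher in the knockouts (Bmp4, Bmpr1a, Bmpr2, Id2 and Id3) where 36.7% of all tested genes were, and 1 was called lower (Id4) where 22.5% were. Smad1, Smad5, Smad6 and Id1 were not called. The counts alone lie near the background. The median log2 fold change of the 10 was 0.50 against 0.17 for all tested genes, and single values ran from -0.78 for Id4 to 2.27 for Id3. The spread of fold changes over all tested genes was not worked out, so these sizes are a description and are not read as particular to the 10 genes. The knockout libraries all lay above the controls in 6 genes, where 41.3% of tested genes did so, and all below in 1 gene, where 25.5% did. On the log2(FPKM + 1) scale the ligand and receptor genes had smaller fold changes than Id2 and Id3, with intervals that did not overlap theirs. The 3 Smad genes were not called (plot of FPKM by library). The gap depends on the pseudocount: at 0.1 the log2 fold change was 1.12 for Bmpr2 (SE 0.32) and 1.94 for Id2 (SE 0.19).

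**Figure D1:**
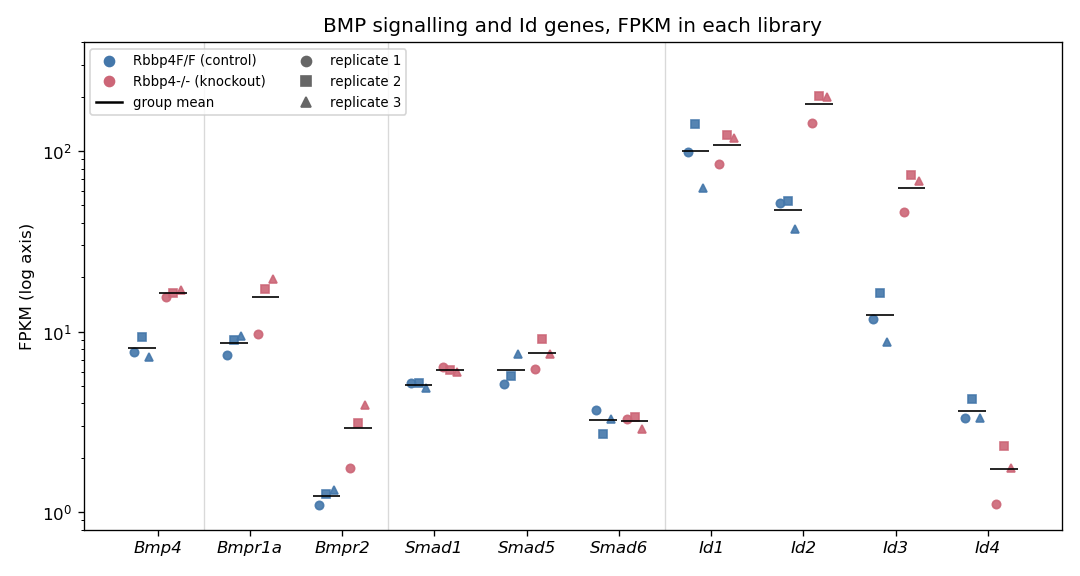
FPKM of the 10 genes on a log axis, with controls (Rbbp4F/F) in blue, knockouts (Rbbp4-/-) in red, a marker shape for each replicate and a black line at each group mean. Id2 and Id3 are separated most widely between the groups, Id1 overlaps, and Id4 lies lower in the knockouts.

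Bmp4 (ENSMUSG00000021835, GRCm38 chr14:46383520-46390669, - strand) encodes the ligand. Its level was 7.68, 9.32 and 7.27 FPKM in the control libraries and 15.6, 16.4 and 17.0 FPKM in the knockouts. The groups did not overlap, and the knockouts lay close together. The mean rose from 8.09 ± 1.08 to 16.4 ± 0.701 FPKM (SD, n = 3 each), with a log2 fold change of 0.94, SE 0.12 and limma adjusted p = 6.52e-04. The call did not hold in a test against a 1.5-fold change (adjusted p = 0.0561), and it held under the other 12 of 13 alternative settings. Antisense exons of Gm15217 cover 4.0% of its exonic length.

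The 250 bases before the RefSeq start of Bmp4 (GRCm38.p6, chr14:46390670-46390919, - strand, 5′ to 3′) are shown beside those of Id2 and Id4 further on. They were searched on both strands for GGCGCC, a palindrome known as a site bound by BMP-activated Smads, for the palindromic Smad site GTCTAGAC, and for the shorter Smad box CAGAC. None of the 3 was found in the 300 bases around this start, from 250 before to 50 after it.
Bmp4: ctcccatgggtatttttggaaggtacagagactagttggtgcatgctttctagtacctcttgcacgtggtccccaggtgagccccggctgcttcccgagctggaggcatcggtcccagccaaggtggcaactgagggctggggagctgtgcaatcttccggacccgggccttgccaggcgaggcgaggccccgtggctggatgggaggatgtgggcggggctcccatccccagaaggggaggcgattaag

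Bmpr1a (ENSMUSG00000021796, chr14:34410734-34503341, - strand) encodes a type I receptor kinase for BMP4. Its level was 7.42, 8.98 and 9.46 FPKM in controls and 9.65, 17.1 and 19.7 FPKM in the knockouts. Knockout replicate 1 lay just above the highest control and well below the other knockouts. The mean was 8.62 ± 1.07 against 15.5 ± 5.20 FPKM (SD, n = 3 each), a log2 fold change of 0.73 with SE 0.25 and limma adjusted p = 0.0402. This call was lost under 9 of 13 alternatives. It was lost with median-ratio scaling (0.52, adjusted p = 0.112) and upper-quartile scaling (0.48, adjusted p = 0.127). It was also lost with no filter (adjusted p = 0.0901), in the 1.5-fold test (adjusted p = 0.772), without control replicate 1, 2 or 3 (adjusted p = 0.121, 0.0855 and 0.0750) and without knockout replicate 2 or 3 (adjusted p = 0.122 and 0.111). Without knockout replicate 1 the log2 fold change was 1.01 (adjusted p = 0.00123). Antisense exons of Gm17110 cover 4.6% of its exonic length.

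Bmpr2 (ENSMUSG00000067336, chr1:59763400-59879014, + strand) encodes the type II receptor kinase. It was the lowest of the 10 genes in the controls, at 1.09, 1.26 and 1.33 FPKM, and reached 1.76, 3.10 and 3.90 FPKM in the knockouts. The groups did not overlap, and knockout replicate 1 was again the lowest knockout. The mean was 1.23 ± 0.123 against 2.92 ± 1.08 FPKM (SD, n = 3 each), a log2 fold change of 0.78 with SE 0.22 and limma adjusted p = 0.0205. The call was lost under 7 of 13 alternatives: with no filter (adjusted p = 0.0640), in the 1.5-fold test (adjusted p = 0.591), without control replicate 1, 2 or 3 (adjusted p = 0.0707, 0.0575 and 0.0530) and without knockout replicate 2 or 3 (adjusted p = 0.0700 and 0.0586). Without knockout replicate 1 it was 1.01 (adjusted p = 0.00180). The level of Bmpr1a over that of Bmpr2, both in FPKM, was 6.81, 7.13 and 7.11 in the controls and 5.48, 5.52 and 5.04 in the knockouts, so the knockout libraries spread less in this ratio than in either gene.

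Smad1 (ENSMUSG00000031681, chr8:79338395-79399518, - strand) encodes one of the transducers that the receptors phosphorylate. Its level was 5.16, 5.18 and 4.84 FPKM in the control libraries and 6.37, 6.12 and 5.98 FPKM in the knockouts. The groups did not overlap, and the SD within groups was the smallest of the 10 genes on the log2 scale (0.04, against a median of 0.17 over all tested genes). The log2 fold change was 0.24 (95% interval -0.02 to 0.50, limma adjusted p = 0.0942), which is 0.07 above the median of all genes. The value moved with the scaling. It was 0.05 with median-ratio scaling (adjusted p = 0.739), 0.01 with upper-quartile scaling (adjusted p = 0.921) and 0.37 with equal FPKM sums, where it passed the threshold (adjusted p = 0.0209).

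Smad5 (ENSMUSG00000021540, chr13:56703010-56742377, + strand), the second transducer, was at 5.13, 5.65 and 7.50 FPKM in controls and 6.22, 9.08 and 7.55 FPKM in the knockouts. The groups overlapped, and the log2 fold change was 0.28 (95% interval -0.15 to 0.71, limma adjusted p = 0.218). Smad9, the third transducer of this class, was at most 0.33 FPKM in any library and was not tested. Summed over Smad1 and Smad5 the level was 11.2 ± 1.06 FPKM in the control libraries and 13.8 ± 1.32 FPKM in the knockouts (SD, n = 3 each).

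Smad6 (ENSMUSG00000036867, chr9:63953076-64022059, - strand) encodes the inhibitory Smad and is itself a known BMP target. It was at 3.69, 2.71 and 3.27 FPKM in controls and 3.26, 3.37 and 2.90 FPKM in the knockouts. The groups overlapped, and the log2 fold change was -0.01 (95% interval -0.34 to 0.32, limma adjusted p = 0.951), so a rise of the size seen for Id2 or Id3 lies outside the interval. Its sign changed with equal FPKM sums (0.11). The stretch before its RefSeq start is shown because it was the only one among the 11 promoter entries of these genes that held GTCTAGAC, in capitals, with its first base at position -4. It runs from 250 bases before the start through the end of that match (GRCm38.p6, chr9:64022056-64022309, - strand).
Smad6: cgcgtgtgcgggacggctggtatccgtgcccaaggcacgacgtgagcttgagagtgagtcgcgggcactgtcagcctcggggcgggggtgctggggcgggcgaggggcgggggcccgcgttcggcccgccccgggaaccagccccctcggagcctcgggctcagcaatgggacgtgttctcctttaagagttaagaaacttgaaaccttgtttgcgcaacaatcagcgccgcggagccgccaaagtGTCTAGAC
GTCTAGAC was found in 0.213% of 32851 mouse promoter entries of 300 bases. A match is a run of letters and not a site shown to be bound.

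Id1 (ENSMUSG00000042745, chr2:152736251-152737410, + strand) was the most abundant of the 10 genes in the controls, at 98.9, 140.5 and 62.8 FPKM, and it was at 84.4, 123 and 118 FPKM in the knockouts. The knockouts lay within the range of the controls, and control replicates 2 and 3 differed 2.24-fold. The mean was 101 ± 38.9 against 109 ± 21.2 FPKM (SD, n = 3 each), a log2 fold change of 0.16 with a 95% interval of -0.52 to 0.85 and limma adjusted p = 0.652. Its sign changed with median-ratio scaling (-0.06), with upper-quartile scaling (-0.10) and without control replicate 3 (-0.14). With 3 libraries a group and this spread, the data do not show whether Id1 changed by an amount within that interval.

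Id2 (ENSMUSG00000020644, chr12:25093799-25097140, - strand) was at 51.6, 53.0 and 37.1 FPKM in the control libraries and at 143, 202 and 200.2 FPKM in the knockouts. Every knockout library was above every control library by a wide gap. The mean rose 3.85-fold, from 47.2 ± 8.78 to 182 ± 33.7 FPKM (SD, n = 3 each), with a log2 fold change of 1.92, SE 0.18 and limma adjusted p = 2.29e-04. The call held under all 13 alternatives, with log2 fold changes of 1.66 to 2.08.

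Id3 (ENSMUSG00000007872, chr4:136143497-136145755, + strand) was at 11.7, 16.4 and 8.79 FPKM in controls and at 45.9, 73.6 and 68.1 FPKM in the knockouts. It had the largest fold change of the 10 genes: the mean rose 5.09-fold, from 12.3 ± 3.84 to 62.5 ± 14.7 FPKM (SD, n = 3 each). The log2 fold change was 2.27 with SE 0.25 and limma adjusted p = 3.89e-04, and the call held under all 13 alternatives, with 2.01 to 2.48.

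Id4 (ENSMUSG00000021379, chr13:48261228-48266026, + strand) moved the other way. It was at 3.34, 4.22 and 3.31 FPKM in the control libraries and at 1.11, 2.32 and 1.75 FPKM in the knockouts, and the groups did not overlap. The mean fell from 3.62 ± 0.517 to 1.73 ± 0.605 FPKM (SD, n = 3 each), a log2 fold change of -0.78 with SE 0.20 and limma adjusted p = 0.0124. The adjusted p was 0.0508 without control replicate 2, the highest control, and 0.522 in the test against a 1.5-fold change, so the call was lost in both, and the sign was negative under all 13 alternatives. Antisense exons of A330033J07Rik and Gm49291 cover 4.4% of its exonic length, and whether strand was used in counting is not given in the sources used here.

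**Figure D2:**
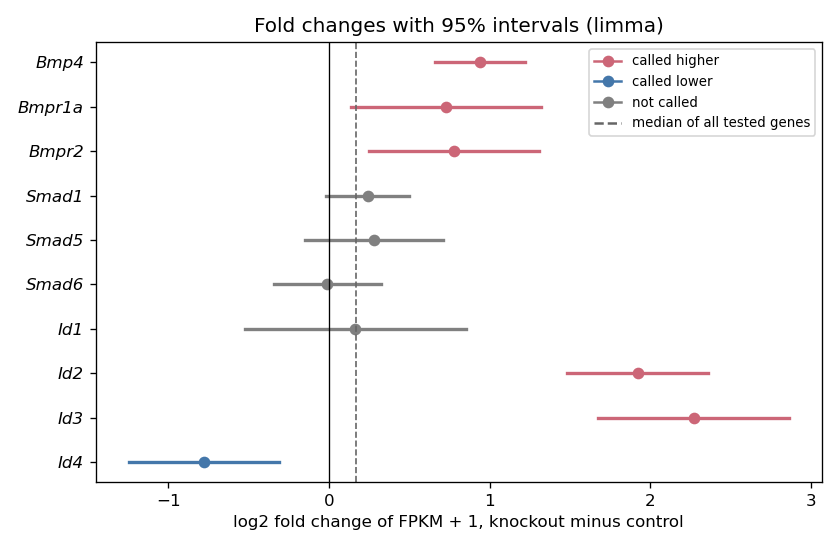
Log2 fold change of FPKM + 1 (knockout minus control) of each gene with its 95% interval from limma, coloured by the call, with a dashed line at the median of all tested genes (0.17). The intervals of Id2 and Id3 lie to the right of all others, that of Id4 lies wholly below 0, and those of Smad1, Smad5, Smad6 and Id1 hold both 0 and the dashed line.

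The promoter stretches of Id2 and Id4 are shown because these genes moved in opposite directions and both hold GGCGCC, in capitals. They are RefSeq promoters on GRCm38.p6, limited to bases outside GENCODE exons: Id2 at chr12:25096254-25096342 (- strand, match at position -231) and Id4 at chr13:48260866-48261115 (+ strand, match at position -148). Positions are relative to the RefSeq start. The Id2 stretch lies inside the GENCODE span of the gene (chr12:25093799-25097140), between its exons, so it is not upstream of the whole gene. The Id4 stretch lies before the GENCODE start of its gene.
Id2: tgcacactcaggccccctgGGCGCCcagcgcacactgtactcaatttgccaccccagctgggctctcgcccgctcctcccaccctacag
Id4: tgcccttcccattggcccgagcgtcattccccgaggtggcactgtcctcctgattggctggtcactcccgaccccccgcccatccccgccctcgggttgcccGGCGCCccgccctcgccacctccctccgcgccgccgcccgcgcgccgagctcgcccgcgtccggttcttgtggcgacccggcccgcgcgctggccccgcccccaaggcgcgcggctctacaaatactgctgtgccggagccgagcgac
Of the 10 genes, 9 had a promoter entry. GGCGCC was found for 5 of them (Bmpr1a, Bmpr2, Id2, Id4 and Smad5), in 6 of the 11 promoter entries of these genes, and in 11.9% of all 32851 promoter entries. The windows of the 11 entries were 59.3% to 79.3% G and C. The motif holds only G and C, and its share among promoters of like content was not worked out, so no enrichment is read from these numbers. CAGAC, on either strand, was found for 2 genes (Id3 and Smad5) and in 49.6% of all entries. The 5 genes with GGCGCC thus include genes called higher, called lower and not called.

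The summed level of the 4 Id genes rose 2.16-fold in the means, from 164 ± 51.1 to 355 ± 70.0 FPKM (SD, n = 3 each). The sum was 165, 214 and 112 FPKM in controls and 274, 401 and 389 FPKM in the knockouts. Id1 made up 59.8%, 65.6% and 56.1% of it in the controls and 30.8%, 30.8% and 30.5% in the knockouts. Id2 went from 24.8% to 33.1% in the controls to 50.3% to 52.1% in the knockouts, and was then the most abundant of the 4. Id3 went from 7.07% to 7.85% in the controls to 16.8% to 18.3%. Id4 was 1.97% to 2.96% in the controls and 0.405% to 0.579% in the knockouts.

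**Figure D3:**
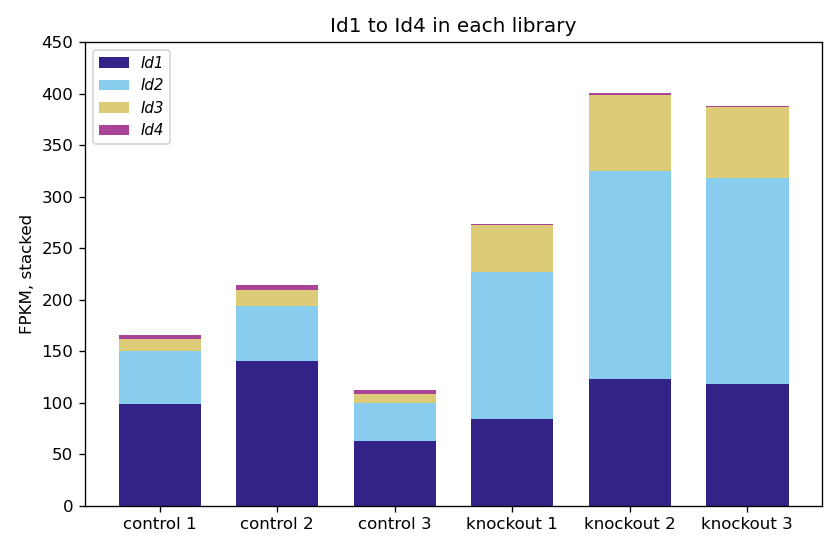
Stacked FPKM of Id1, Id2, Id3 and Id4 in each library. The bars differ in height within both groups, from 112 to 214 FPKM in the control libraries and from 274 to 401 FPKM in the knockouts, while Id1 is the largest part of every control bar and Id2 of every knockout bar.

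Ratios within a library do not depend on how libraries are scaled to each other. Id2 over Id1 was 0.521, 0.377 and 0.591 in the controls and 1.69, 1.64 and 1.69 in the knockouts. Id3 over Id1 was 0.118, 0.117 and 0.140 in the controls and 0.544, 0.596 and 0.575 in the knockouts. Id3 over Id2 differed less, at 0.227 to 0.309 in the controls and 0.322 to 0.364 in the knockouts. Id4 over Id3 went from 0.258 to 0.377 in the controls to 0.0242 to 0.0315. For all 6 pairs of Id genes the ratios of the groups did not overlap. An exact two-sided permutation test gave p = 0.1 for each (adjusted p = 0.1 over the 6 pairs). That is the smallest p that 3 libraries against 3 can give. The 6 pairs share genes, so their ratios are not separate observations. The levels of the groups did not overlap in 66.8% of all tested genes. The share among ratios of other gene pairs was not worked out.

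The order of the 10 genes by mean FPKM changed at its top and bottom. In the controls it was Id1, Id2, Id3, Bmpr1a, Bmp4, Smad5, Smad1, Id4, Smad6 and Bmpr2. The ranges of neighbours overlapped from Id3 through Smad1 and for Id4 and Smad6, so their order among themselves is not set. In the knockouts it was Id2, Id1, Id3, Bmp4, Bmpr1a, Smad5, Smad1, Smad6, Bmpr2 and Id4. There the ranges overlapped for Bmp4 and Bmpr1a, for Smad5 and Smad1, and for Smad6, Bmpr2 and Id4.

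Some of the 10 genes shared an order of replicates, and others did not. In the controls, replicate 2 was the highest and replicate 3 the lowest for Bmp4, Smad1 and all 4 Id genes. Bmpr1a, Bmpr2 and Smad5 differed from these, with control replicate 3 the highest and replicate 1 the lowest. Smad6 had control replicate 1 the highest and replicate 2 the lowest. In the knockouts, replicate 1 was the lowest for Bmp4, Bmpr1a, Bmpr2, Smad5 and all 4 Id genes, and replicate 2 was the highest for the 4 Id genes. Smad1 and Smad6 were lowest in knockout replicate 3, and Smad1 was highest in knockout replicate 1. Knockout replicate 1 also held the most Rbbp4 of the knockouts (21.3 FPKM) and the highest ES cell marker sum (2331 FPKM), and the part of these in its values was not tested. Without it, the log2 fold change was 2.08 for Id2, 2.47 for Id3, 0.97 for Bmp4 and -0.61 for Id4, all still past the threshold (limma adjusted p = 2.38e-04, 4.89e-04, 0.00116 and 0.0173). The within-group SD on the log2 scale was 0.46 for Id1, 0.39 for Id3 and 0.38 for Bmpr1a, against the median of 0.17 over all tested genes.

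A further 98 genes, in 7 lists by role, were counted in the same fit. They are called the other pathway genes here, though 1 list holds E proteins and bHLH partners of Id proteins. Of the 98, 64 were tested. Of those, 37 were called higher, where 36.7% of all tested genes were. Another 12 were called lower, where 22.5% were, and 15 were not called. The count of lower genes lies near its background, but 5 of the 12 came from the bHLH list, in which 8 were tested. The median log2 fold change of the 64 genes was 0.49, against 0.17 for all tested genes. With upper-quartile scaling 28 were higher and 15 lower (25.5% and 32.5% of all tested genes), and with median-ratio scaling 28 and 14 (26.8% and 31.1%). In the test against a 1.5-fold change, the calls of the following genes named below were lost: Ep300 (adjusted p = 0.0632), Eng (0.0654), Hipk2 (0.0911), Acvr1 (0.533), Gdf3 (0.630), Hey1 (0.746) and Ctdsp1 (0.991), and Yy1, Fkbp1a, Bambi, Acvr2b, Ascl2 and Smad4 (1.0 each). The calls of Acvrl1, Runx1, Tbx3, Fstl3, Crebbp and Tob2, also named below, were lost in that test too. Acvrl1, Tgfbr3, Runx1, Fst, Msx2, Gata3, Tbx3 and Cdx2 passed the filter only through the knockout libraries and so were bound to show a difference. Hey1 and Neurog1 passed it only through the control libraries, and the same holds for them. Nog and Chrd reached 1 FPKM in 1 control each and needed the knockouts to pass. The lists were chosen with earlier results of these data known, and their counts are a description.

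**Figure D4:**
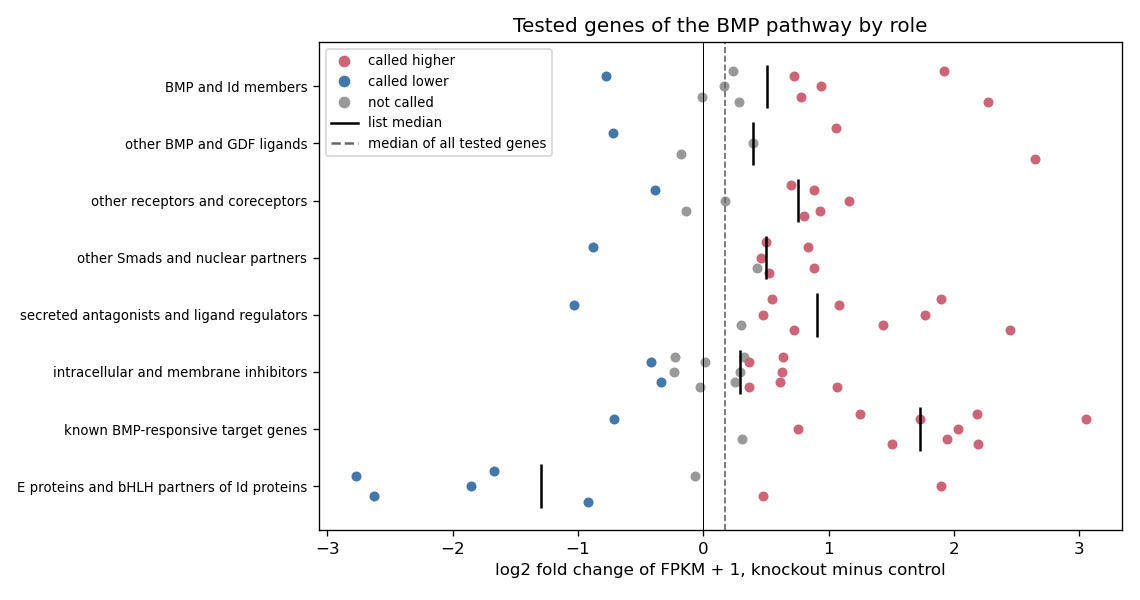
Log2 fold change of FPKM + 1 (knockout minus control) of every tested gene, by role, coloured by the limma call, with a black bar at each list's median and a dashed line at the median of all tested genes. The BMP-responsive targets lie furthest to the right, with a median of 1.73, and the bHLH list furthest to the left, with a median of -1.29.

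Among the other BMP and GDF ligands, 5 of 15 were tested, and 2 were called higher and 1 lower (median 0.40), near the background of 36.7% and 22.5%. Bmp8b, which encodes a BMP known from the germ line and extraembryonic tissue, rose from 4.55 ± 0.594 to 34.0 ± 6.36 FPKM, with a log2 fold change of 2.64 and limma adjusted p = 5.61e-05. Antisense exons of Gm17244 and Ppie cover 12.2% of its exonic length. Its neighbour in sequence, Bmp8a, rose from 1.28 ± 0.246 to 3.74 ± 0.314 FPKM. These closely related copies can share reads, so how the reads were divided between them is uncertain. Gdf3, a ligand gene of pluripotent cells, fell from 68.1 ± 3.28 to 41.7 ± 11.5 FPKM. Bmp2, singled out after its values were seen, was at 0.0400 to 0.190 FPKM in controls and 0.730 to 1.29 FPKM in the knockouts and was not tested. Summed over Bmp2, Bmp4, Bmp6, Bmp7, Bmp8a and Bmp8b, the ligand level was 19.8 ± 0.727 FPKM in the control libraries and 61.8 ± 7.47 FPKM in the knockouts. Bmp4 was 37.4% to 47.4% of that sum in the controls and 25.1% to 29.4% in the knockouts, while Bmp8b went from 21.1% to 25.3% to 50.1% to 57.1%.

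Of the other receptors and coreceptors, 8 of 10 were tested, and 5 were called higher and 1 lower (median 0.75), against 36.7% and 22.5% of all tested genes. Acvrl1 and Tgfbr3, 2 of the 5, passed the filter only through the knockouts. Eng, which encodes the coreceptor endoglin, rose from 7.16 ± 0.176 to 14.1 ± 1.17 FPKM (log2 fold change 0.88, limma adjusted p = 5.18e-04). Acvr1, another BMP type I receptor, rose from 3.50 ± 0.244 to 6.29 ± 0.319 FPKM. Tgfbr3, which encodes betaglycan, was at 0.490 to 0.730 FPKM in controls and 2.13 to 2.99 FPKM in the knockouts. Bmpr1b, the paralog of Bmpr1a, was at most 0.33 FPKM in any library. The 1 receptor called lower was Acvr2b, a type II receptor for activins and BMPs, named after its values were seen, at 12.1 ± 1.41 against 8.94 ± 0.481 FPKM (-0.39, adjusted p = 0.0249). Its call was lost with equal FPKM sums (adjusted p = 0.127), without control replicate 1 or 3 (adjusted p = 0.0575 and 0.0765) and without knockout replicate 2 or 3 (adjusted p = 0.0523 and 0.0545).

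Of the other Smads and nuclear partners, 7 of 9 were tested, and 5 were called higher and 1 lower (median 0.50), against 36.7% and 22.5% of all tested genes. Runx1, 1 of the 5, passed the filter only through the knockouts. Smad4, the common partner of the transducers and named after its values were seen, was at 27.3 ± 5.87 against 39.0 ± 3.56 FPKM (0.52, limma adjusted p = 0.0284). Its call was lost with median-ratio scaling (adjusted p = 0.159), upper-quartile scaling (0.214) and no filter (0.0636), when control replicate 2 or 3 was left out (0.0612 and 0.0643) and when knockout replicate 2 or 3 was (0.0940 and 0.0630). Ep300, which encodes the acetyltransferase p300, a coactivator of Smads, rose from 25.9 ± 1.496 to 47.0 ± 3.18 FPKM (log2 fold change 0.84, limma adjusted p = 3.19e-04). Yy1, a zinc finger factor, was at 15.5 ± 1.16 against 22.4 ± 1.87 FPKM (0.50, adjusted p = 0.00559), a call lost with median-ratio scaling (0.28, adjusted p = 0.0575) and upper-quartile scaling (0.25, adjusted p = 0.0818). Hipk2, a kinase that binds Smads, fell from 7.56 ± 0.272 to 3.64 ± 0.332 FPKM.

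Secreted antagonists and regulators of the ligands were called higher in 8 and lower in 1 of the 10 that were tested out of 19 (median 0.90), against 36.7% and 22.5% of all tested genes. Fst, 1 of the 8, passed the filter only through the knockouts. Nog and Chrd, also among the 8, reached 1 FPKM in 1 control each and needed the knockouts to pass. Bmp1, which despite its name encodes a protease that cleaves the antagonist chordin, rose from 4.07 ± 0.360 to 26.9 ± 5.39 FPKM (log2 fold change 2.44, limma adjusted p = 6.88e-05). Nbl1, which encodes a BMP antagonist of the DAN family, rose from 1.85 ± 0.449 to 9.76 ± 2.98 FPKM (1.89). Fstl1, a follistatin-like glycoprotein gene, fell from 50.7 ± 1.27 to 24.3 ± 0.987 FPKM (-1.03). Nog, which encodes the BMP4 antagonist noggin and was singled out after its values were seen, was at 0.510, 1.12 and 0.570 FPKM in the control libraries and rose to 2.45, 6.44 and 6.78 FPKM in the knockouts (1.77, adjusted p = 0.00362). Antisense exons of Prss57 cover 47.3% of Fstl3, 1 of the 8 called higher.

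All 15 inhibitors inside the cell and in the membrane were tested, and 6 were called higher, 2 lower (Fkbp1a and Bambi) and 7 not (median 0.29), near the background of 36.7% and 22.5%. Nedd4l, a ubiquitin ligase that acts on Smads and receptors, rose from 12.0 ± 1.39 to 26.2 ± 0.841 FPKM (log2 fold change 1.07, limma adjusted p = 2.62e-04). Ctdsp1, a phosphatase, rose from 17.2 ± 0.988 to 26.8 ± 2.85 FPKM (0.61). Fkbp1a, whose product FKBP12 holds type I receptors inactive, fell from 299 ± 12.4 to 235 ± 8.37 FPKM (-0.34, adjusted p = 0.00476), and with equal FPKM sums it did not pass (-0.18, adjusted p = 0.0506). Bambi, a pseudoreceptor gene, was at 2.82 ± 0.219 against 1.87 ± 0.322 FPKM (-0.42, adjusted p = 0.0378). Its call was lost with equal FPKM sums (adjusted p = 0.0883), with no filter (adjusted p = 0.114) and without any 1 library other than knockout replicate 1 (adjusted p = 0.0675 to 0.132). Smad7, the other inhibitory Smad, singled out after its values were seen, was at 7.01 ± 0.617 against 9.15 ± 2.22 FPKM and did not pass the test (adjusted p = 0.157). It passed without knockout replicate 1 (0.48, adjusted p = 0.0216).

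Of 16 genes listed as BMP-responsive, 11 were tested, and 9 were called higher, 1 lower and 1 not (median 1.73), against 36.7% and 22.5% of all tested genes. Msx2, Gata3, Tbx3 and Cdx2, 4 of the 9, passed the filter only through the knockouts, so these were bound to differ. The 1 lower was Hey1, a Notch and BMP target at 1.85 ± 0.720 against 0.710 ± 0.147 FPKM. Its call was lost with no filter (limma adjusted p = 0.0576). It was also lost without control replicate 1 or 3 (adjusted p = 0.0614 and 0.0633) or knockout replicate 2 (adjusted p = 0.0765). Hey1 passed the filter only through the controls, so it too was bound to differ. Gata2, a transcription factor gene of trophoblast and blood, rose from 1.93 ± 0.378 to 12.4 ± 1.64 FPKM, with a log2 fold change of 2.19 and limma adjusted p = 8.29e-05. Junb, an AP-1 subunit gene, rose from 23.4 ± 3.82 to 68.1 ± 7.14 FPKM (1.51), and antisense exons of Prdx2 cover 7.5% of it. Cdkn1a rose from 29.0 ± 3.71 to 121 ± 10.1 FPKM (2.03), answers to many signals besides BMP, and has antisense exons over 7.7% of its exonic length. Dusp9, a phosphatase gene known as a BMP target in ES cells and singled out after its values were seen, was at 38.1, 34.6 and 27.6 FPKM in controls and rose to 105, 201 and 173 FPKM in the knockouts (2.18, adjusted p = 4.02e-04). Cdx2, Gata3 and Hand1 of this list are also trophoblast markers.

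Of 14 E protein and other bHLH genes, the kind of factor Id proteins bind, 8 were tested, and 2 were called higher (Tcf12 and Ascl2) and 5 lower (median -1.29), against 36.7% and 22.5% of all tested genes. Neurog1, 1 of the 5, passed the filter only through the controls and so was bound to differ. Ascl2, also a trophoblast marker, was at 8.81 ± 1.88 against 12.5 ± 1.20 FPKM, and its call was lost with median-ratio scaling (adjusted p = 0.209), upper-quartile scaling (adjusted p = 0.255) and when control replicate 1 or 3 (adjusted p = 0.0965 and 0.104) or knockout replicate 2 or 3 (adjusted p = 0.121 and 0.0810) was left out. Tcf12, which encodes the E protein HEB, rose from 7.55 ± 0.401 to 30.7 ± 1.14 FPKM (log2 fold change 1.89, limma adjusted p = 3.33e-05). Tcf3, which encodes the E proteins E12 and E47 and was singled out after its values were seen, fell from 105 ± 6.54 to 55.4 ± 6.34 FPKM (-0.92, adjusted p = 3.74e-04). Tcf12 over Tcf3 was thus 0.0720, 0.0665 and 0.0767 in the controls and 0.473, 0.584 and 0.627 in the knockouts. Olig2, a neural bHLH gene, fell from 32.7 ± 0.995 to 4.11 ± 1.73 FPKM (-2.78), and Tcf15, a bHLH gene of primed pluripotent cells and somites, fell from 27.4 ± 7.91 to 3.49 ± 0.569 FPKM (-2.63). The 3 E protein genes Tcf3, Tcf4 and Tcf12 together were at 117 ± 5.88 FPKM in the control libraries and 89.8 ± 4.84 FPKM in the knockouts. The summed Id level over the summed E protein level was 1.36, 1.81 and 1.01 in the controls and 2.88, 4.58 and 4.50 in the knockouts, with no overlap. These are transcript levels, and protein was not measured.

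Many of the markers of other cell types also differed between the groups, and others did not. Of 12 trophoblast markers, 10 were tested and 8 were called higher, against 36.7% of all tested genes, with Cdx2 and Gata3 passing the filter only through the knockouts. Their summed level was 123 to 184 FPKM in controls and 2221 to 4004 FPKM in the knockouts. Most of that sum was Krt8 and Krt18, keratins shared by simple epithelia, while Prl3d1 of trophoblast giant cells was at 0 in every library. Elf5 (1.29 ± 0.497 against 1.99 ± 0.283 FPKM, limma adjusted p = 0.119) and Eomes (2.90 ± 0.777 against 2.88 ± 0.382 FPKM) were tested and not called. Of 12 primitive endoderm markers, 5 were tested and 3 were called higher, against 36.7% of all tested genes. Gata4, 1 of the 3, passed the filter only through the knockouts. Dab2, another of the 3, reached 1 FPKM in 1 control and needed the knockouts to pass. The summed level of the 12 markers was 8.05 to 9.02 FPKM against 28.0 to 33.0 FPKM. Gata6, Sox7, Pdgfra, Foxa2 and Cubn were too low to be tested, and in each of them every knockout library was above every control. That was so in 41.3% of tested genes, and the share among untested genes was not worked out. In Afp, also untested, the groups overlapped. Sox17 and Amn were tested and not called, with overlapping groups, and Amn was at 3.04 ± 0.722 against 2.63 ± 0.495 FPKM. Gata6 was at 0.110 to 0.120 FPKM against 0.870 to 0.930 FPKM. Ttr was at 0 in every library. Of 12 fibroblast markers, 3 were tested. Twist1 was called higher, and Thy1 and Fbln1 lower, against 36.7% and 22.5% of all tested genes. The sum was 44.9 to 50.7 FPKM in the control libraries and 18.3 to 21.7 FPKM in the knockouts. Most of it was Fbln1 (29.6 ± 2.65 against 5.69 ± 0.719 FPKM) and Thy1 (14.8 ± 3.15 against 7.68 ± 0.382 FPKM). In Col1a2, Col3a1, Dcn, Lum, Pdgfrb and Prrx1, all untested, every knockout library was above every control. In Col1a1, Postn and Fap the groups overlapped. Fap was at 0 in every library, Lum and Postn were at 0 in the controls, and 9 of the 12 were under 1 FPKM throughout. The part of other cell types in the levels of Bmp4, the receptors and the Id genes was not tested.

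The genes nearest in pattern to Bmp4 and the Id genes were taken by the Euclidean distance between centred log2(FPKM + 1) profiles over the 6 libraries, among 8967 protein-coding genes with a mean of at least 5 FPKM. For Bmp4 they were Plec (distance 0.0434) and Slc23a2 (0.0996). For Id2 they were Dusp5 (0.133) and Gsto1 (0.178), for Id3 Tceal5 (0.231) and Dmkn (0.242), and for Id4 Orc1 (0.262) and Plpp3 (0.286). Id1 had the most distant neighbours, Mat2a (0.381) and Mt2 (0.386). All these profiles share the same 6 libraries. The neighbours of Bmp4, Id2 and Id3 had higher means in the knockouts, as these genes did, and those of Id4 had lower means. Each of these neighbours thus shares its gene's direction between the 2 groups. Id1, Mat2a and Mt2 had small log2 fold changes (0.16, 0.09 and 0.27).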

How the data were processed

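RNA-seq libraries of 3 control and 3 knockout samples were placed in groups by their titles. Each deposited file holds 1 value per gene, and its unit, FPKM, was inferred from the values the authors deposited, since no header or label names it: the values are not whole, their sums differ between libraries (697933 to 800146), and low values lie on steps set by transcript length (84.6% to 87.6% within 0.15 of a whole step). Depth was estimated from these steps. They did not give back whole fragments for nearly all genes, so no count model was used. The submitters' processing notes name, with no roles, the tools HISAT2 2.1.0, DESeq 1.26.0, FastQC and RSEM and the build GRCm38.p6. The annotation release and the use of strand in counting: not given in the sources used here. FPKM is relative to each library's total, so values of all genes depend on the most abundant ones. Of 52872 lines per file, 2 name no gene and were left out; of 51912 Ensembl identifiers, 51719 matched GENCODE M21, from which symbols and coordinates came. Promoters came from the RefSeq table of GRCm38.p6.

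Genes reaching 1 FPKM in 3 or more libraries were compared on the log2(FPKM + 1) scale. The tool was limma 3.58.1 (R 4.3.3), two-sided, with genotype alone in the model, moderated variances that follow the mean level, and Benjamini-Hochberg adjustment over all 13579 tested genes. The script was tested on simulated data. Alternatives were median-ratio and upper-quartile scaling, a pseudocount of 0.1, no filter, a replicate block, a test against a 1.5-fold change, leaving out each library in turn (reaching 1 FPKM in 2 or more libraries), and equal FPKM sums, added after seeing the data. The genes and lists were chosen with earlier results of these data known. Named were the 10 genes, Rbbp4, up to 3 called genes with the smallest p in each list, the 2 nearest patterns for Bmp4 and each Id gene, and defining markers. Any other gene was picked with its values in view.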

Additional observations from a re-analysis of the deposited data

How the results depend on the processing

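Of the 10 genes, Id2 and Id3 kept their calls under all 13 alternatives. The count called higher was 5 (36.7% of all tested genes). It was 3 with no filter on low values (19.9%), 2 in the test against a 1.5-fold change (11.3%), 4 with median-ratio (26.8%) and with upper-quartile scaling (25.5%), 6 with equal FPKM sums (44.7%), and 3 to 5 when 1 library was left out (29.9% to 39.9%), the lower counts through Bmpr1a and Bmpr2 (and Bmp4 in the 1.5-fold test). The count called lower was 1. In the 1.5-fold test with limma it was 0, also at an unadjusted p under 0.05, and it was 0 to 1 when 1 library was left out, with 0 only without control replicate 2, where Id4 passed at an unadjusted p. Of the other pathway genes, 18 were higher and 6 lower in the 1.5-fold test (11.3% and 6.18% of all tested genes), and 30 to 41 and 9 to 14 when 1 library was left out (29.9% to 39.9% and 17.2% to 25.6%). The sign of Smad6 (-0.01) changed with equal FPKM sums (0.11), and it ran from -0.10 to 0.068 when 1 library was left out. The sign of Id1 (0.16) changed with median-ratio (-0.062) and upper-quartile scaling (-0.10), and it ran from -0.14 to 0.44 when 1 library was left out. The cause of these changes was not tested. The summed Id level was 1.80 to 2.56 times the control under 9 alternatives. The replicate numbers did not pair the samples, as same-numbered libraries correlated at -0.00121, -0.00933 and 0.0492 in their deviations from the group means. A replicate block gave 5 of the 10 genes higher and 1 lower, 34 and 11 of the other pathway genes, and 35.9% and 21.4% of all tested genes. Crebbp, Smad4, Tob2 and Bambi (adjusted p = 0.0573) were the pathway genes whose calls it lost. Depth was similar in all libraries, and the lowest level among the 10 genes (1.09 FPKM, Bmpr2) is many fragments above the step of 1 fragment.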
